A study of Schizosaccharomyces pombe with 6 samples.

Results

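The genes described here supply the fission yeast Schizosaccharomyces pombe with phosphate or store it: vtc4 and vtc2, which encode subunits of the complex that makes polyphosphate, SPAC23D3.12, a predicted plasma membrane phosphate transporter, and SPAC1039.02, a predicted extracellular 5'-nucleotidase. They are 4 of the 6986 features in the deposited count table, taken by gene name or systematic identifier. They were chosen by their known log2 fold change between the strains, mutant over wild type, so that difference is given below as a description, without a test. Polyadenylated RNA was sequenced from 3 wild-type cultures (h+ rpb1-CTD-WT29::NatMX) and 3 cultures of a seb1-G476S strain called STF19 (h+ rpb1-CTD-WT29::KanMX). The cultures grew exponentially at 30 °C in the rich medium YES, and the series describes the cultures of a strain as biological replicates. Both strains thus carry the rpb1-CTD-WT29 allele, and the drug marker beside it differs together with the seb1 allele, so the marker and the allele cannot be told apart. Each group is 1 strain. Seb1 is an essential RNA-binding protein of transcription termination, and the allele came from a screen for mutants that relieve the repression of genes by transcription of a long non-coding RNA (lncRNA) upstream.

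Cells take up inorganic phosphate through transporters of the plasma membrane and free it from outside molecules with secreted or surface enzymes. Surplus phosphate is stored in the vacuole as polyphosphate, a chain of phosphates joined by high-energy bonds. The vacuolar transporter chaperone (VTC) complex makes this chain from ATP and passes it across the vacuolar membrane. In budding yeast Vtc4 holds the catalytic site, while Vtc2 and Vtc3 are accessory subunits. The complex binds inositol pyrophosphates through the SPX domain, a sensor of phosphate status. In fission yeast the phosphate genes pho1, pho84 and tgp1 are each repressed in rich medium by transcription of such an upstream lncRNA.

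The libraries held 21013941 to 27910803 counts assigned to features. Levels are CPM, counts scaled by the TMM library size, and a log2 fold change is the mutant over the wild type with its standard error (SE). A call means an adjusted p under 0.05 in edgeR's quasi-likelihood test, and 55% of the 6046 tested features were called, 26.7% higher and 28.4% lower in the mutant. With library totals alone as scaling, 33.4% of the calls were higher in place of 48.5%. Wild-type replicate 3 had the lowest mean correlation with the other libraries of its group, 0.992, where the other 5 libraries had 0.994 to 0.997. Markers of mating type did not settle the h+ label. Of 5 P-cell genes listed, 3 were analysed, and their sum was 1042 to 1296 CPM in wild-type and 1378 to 1420 CPM in mutant libraries, almost all of it from sxa1. The P-factor gene map2 had 4.31 to 5.70 CPM over all libraries. The 8 M-cell genes summed to 62.4 to 77.4 CPM in wild-type libraries, against 69.3 to 75.9 CPM in mutant ones, with mat1-Mc and mat1-Mi at 0.

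The 4 genes together held 1021 ± 67.1 CPM in wild-type and 2727 ± 113 CPM in mutant libraries (SD, n = 3 each). This was 0.102% and 0.273% of the TMM library size, which differs from the plain total of counts. Each gene was higher in every mutant library than in any wild-type library, which was so of 31.3% of all tested features. All 4 passed the filter on low counts and would be called higher, but since they were picked for this difference nothing is read from that count. In RNA from whole cultures, a change in the share of cells that express a gene cannot be told apart from a change in every cell.

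**Figure D1:**
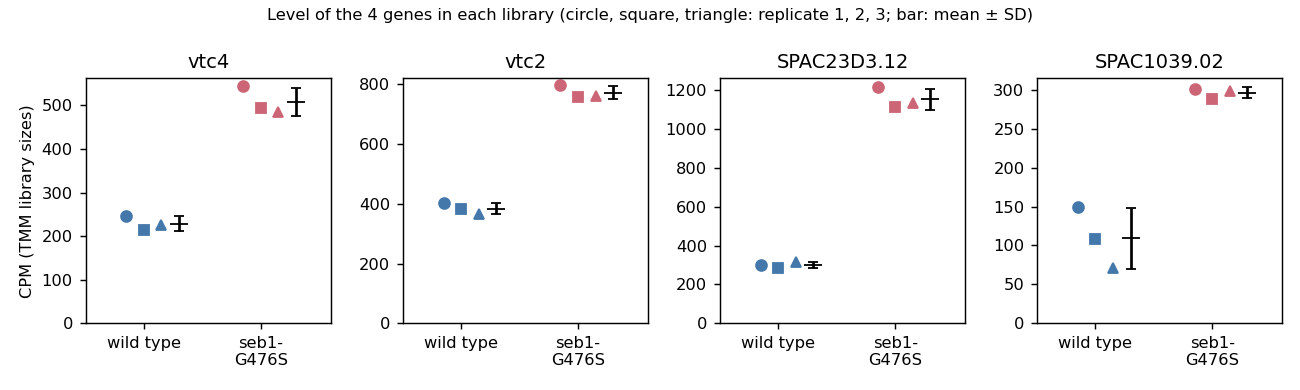
CPM of each gene in the 3 wild-type (blue) and 3 seb1-G476S (red) libraries, with the group mean and SD as bars and each vertical axis starting at 0. The groups are apart for every gene, and the wild-type libraries of SPAC1039.02 run from 70.6 to 149 CPM while its mutant libraries stay between 288 and 301 CPM.

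The catalytic subunit gene vtc4 (SPCC1322.14c, chromosome III) had 247, 213 and 226 CPM in wild-type replicates 1, 2 and 3 and 545, 494 and 485 CPM in mutant replicates 1, 2 and 3. The lowest mutant library was 1.96-fold above the highest wild-type library. The group means differed 2.22-fold, with a log2 fold change of 1.15 (SE 0.0714). Its counts were 5085 to 5765 per wild-type library, so counting error was small beside the spread between libraries.

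The accessory subunit gene vtc2 (SPAC14C4.11, chromosome I) had 401, 383 and 365 CPM in the wild-type libraries and 797, 757 and 759 CPM in the mutant libraries. The deposited description names its product as Vtc2/3, after both accessory subunits of budding yeast. The means differed 2.01-fold, with a log2 fold change of 1.01 (SE 0.0563). The gene laf1, which encodes a chromatin factor, overlaps vtc2 on the opposite strand in the reference annotation. Reads of the overlap may therefore be split between the genes or left out, and their part in the value of vtc2 was not tested. The level of laf1 was 61.7 ± 5.76 CPM in the wild type.

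The third VTC subunit gene, nrf1, encodes the small membrane subunit that corresponds to Vtc1 of budding yeast, and it was not chosen for its difference. It rose from 341 ± 20.5 to 483 ± 14.4 CPM, a log2 difference of 0.50 (SE 0.0596, adjusted p = 0.000158). Per kilobase of exon, nrf1 held the largest share of the VTC transcripts in every library. That share was 70.5% ± 0.953 in the wild type and 61.8% ± 1.61 in the mutant, while vtc4 went from 11.2% ± 0.778 to 15.4% ± 0.968 and vtc2 from 18.3% ± 0.195 to 22.8% ± 0.638. The ratio of vtc2 to vtc4 per kilobase was 1.58 to 1.76 in the wild-type libraries and 1.43 to 1.53 in the mutant libraries. The mix of subunit mRNAs thus differed between the strains by more than the spread within them, with vtc4 and vtc2 gaining on nrf1. These shares rest on the 2 chosen genes, so they too are a description.

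The predicted phosphate transporter SPAC23D3.12 (chromosome I) showed the largest difference of the 4. It had 301, 285 and 314 CPM in the wild-type libraries and 1213, 1110 and 1133 CPM in the mutant libraries. The lowest mutant library was 3.54-fold above the highest wild-type library, and the group means differed 3.84-fold. Its log2 fold change of 1.94 (SE 0.0614) was exceeded by 77 of the 6046 tested features.

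The deposited descriptions list 4 inorganic phosphate transporters outside mitochondria. Per kilobase, pho84 held most of their transcripts, 80.2% ± 0.366 in the wild type and 67% ± 0.457 in the mutant. SPAC23D3.12 held 12% ± 0.481 in the wild type and 27.5% ± 0.173 in the mutant. Its share lay between 11.6% and 12.5% in every wild-type library and between 27.4% and 27.7% in every mutant library. The remaining transporter genes, SPCC2H8.02 and SPBC1683.01, each held under 5% in every library. Since SPAC23D3.12 was chosen for its rise, these shares are a description. The share of pho84 was smaller in the mutant although its own level rose (log2 fold change 0.49).

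**Figure D2:**
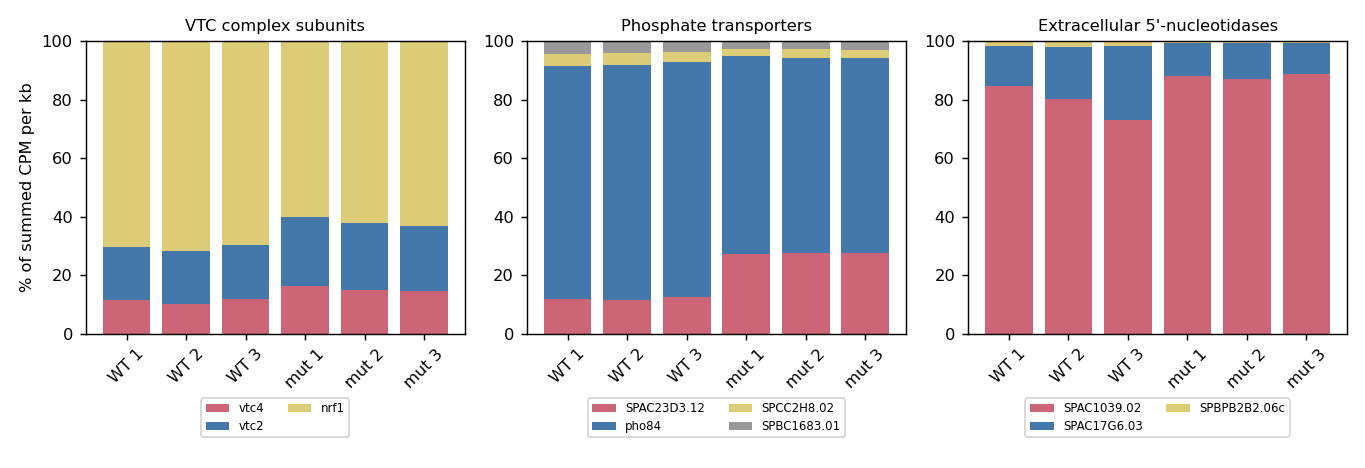
Share of each gene in the summed CPM per kilobase of its family, for wild-type (WT) and seb1-G476S (mut) replicates 1 to 3. Each family holds at least 1 gene chosen for its rise, so the shares are a description. The share of SPAC23D3.12 among the transporters is 11.6% to 12.5% in the wild-type and 27.4% to 27.7% in the mutant libraries, and that of nrf1 among the VTC subunits is lower in every mutant library.

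The predicted extracellular 5'-nucleotidase SPAC1039.02 (chromosome I) is described as a member of the family of human NT5E, a surface enzyme that frees phosphate from AMP. It had 149, 109 and 70.6 CPM in wild-type replicates 1, 2 and 3, and 301, 288 and 298 CPM in mutant replicates 1, 2 and 3. The wild-type libraries thus spread 2.11-fold while the mutant libraries lay within 1.05-fold of each other. The group means differed 2.70-fold, with a log2 fold change of 1.43 (SE 0.204). The value was 1.20 without wild-type replicate 3, its lowest library, and 1.72 without wild-type replicate 1, its highest.

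The wild-type spread of SPAC1039.02 was taken over the wild-type libraries alone. These same libraries entered the fold change by which the gene was chosen, so the rank of its spread is a description. Its SD of log2 CPM over the wild-type libraries was 0.541, where the median over all tested features was 0.136, and 97.0% of the tested features had a lower one. Of the 1595 features with at least 100 CPM in the wild type, a level chosen after its value was seen, 4 had a larger one. The SDs of vtc4, vtc2 and SPAC23D3.12 were 0.108, 0.0684 and 0.0690, all under that median. With 3 libraries, SDs are themselves imprecise, and whether culture conditions differed between the wild-type replicates was not tested.

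**Figure D3:**
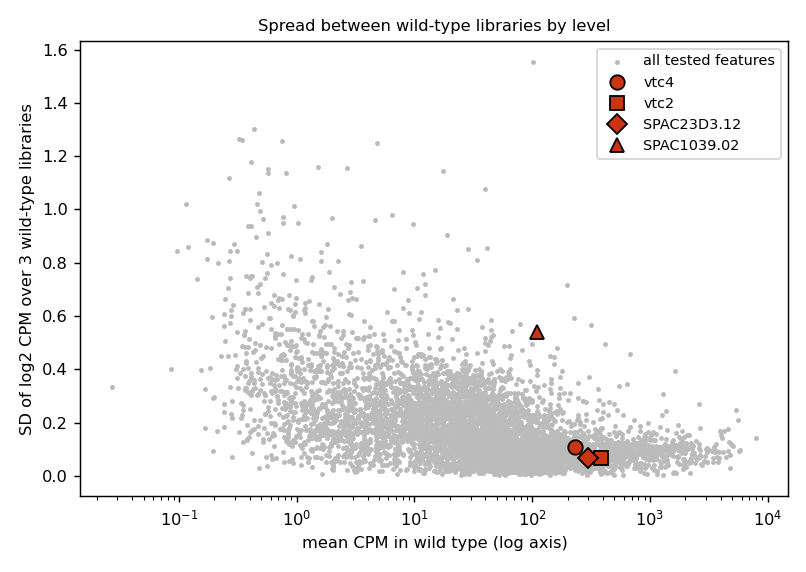
SD of log2 CPM over the 3 wild-type libraries against the mean wild-type CPM (log axis), with grey points for all tested features and red symbols for the 4 genes. SPAC1039.02, at 0.541, lies above nearly all features of its level, and the other genes lie at 0.0684 to 0.108.

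Of the other genes described as extracellular 5'-nucleotidases, the wild-type libraries of SPAC17G6.03 lay close together, with a coefficient of variation of 1.57%, and those of the weakly expressed SPBPB2B2.06c spread 2.07-fold. SPAC17G6.03 had 24.9 ± 0.391 CPM in wild-type libraries and rose to 39.2 ± 2.94 CPM (log2 fold change 0.66, SE 0.0927, adjusted p = 0.000388). SPBPB2B2.06c had 2.48 ± 0.855 CPM in wild-type and 1.73 ± 0.372 CPM in mutant libraries (log2 fold change -0.53, adjusted p = 0.138). Without wild-type replicate 3 its log2 fold change was -0.78 and its adjusted p 0.00927. SPAC1039.02 held 79.4% ± 5.87 of the transcripts of this family per kilobase in the wild type and 88.1% ± 0.842 in the mutant. This share too rests on a chosen gene and is a description. Whether reads are shared between these related genes was not tested.

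Per kilobase of exon the order of the 4 genes was the same in every library of a group and differed between the groups. The 4 were chosen for their rise, so this change of order is a description. In the wild type vtc2 was highest at 141 ± 6.69 CPM per kilobase, followed by SPAC23D3.12 at 113 ± 5.38, vtc4 at 86.2 ± 6.51 and SPAC1039.02 at 55.4 ± 19.9. In the mutant SPAC23D3.12 was highest at 433 ± 20.3 CPM per kilobase, followed by vtc2 at 284 ± 8.33, vtc4 at 191 ± 12.2 and SPAC1039.02 at 150 ± 3.53. Libraries of genes next to each other in this order did not overlap in either group. The closest were vtc4 and SPAC1039.02 in the wild type, where the lowest library of vtc4 had 80.2 and the highest of SPAC1039.02 had 75.5 CPM per kilobase.

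A wider list of phosphate genes was gathered by words in the deposited product descriptions and by name, not by fold change. It was drawn up with earlier results of these data known, and held 24 genes besides the 4. All 24 were tested, and 12 were higher and 2 lower, against the 26.7% higher and 28.4% lower of all tested features. The median log2 fold change was 0.20 in the list and -0.0078 over all tested features. The list includes pho1, pho84 and tgp1, the genes under upstream lncRNAs, and without these 9 of 21 were higher and 2 lower. With library totals alone as scaling, 9 of the 24 were higher and 4 lower. Over all features that scaling gave 1148 higher and 2287 lower of 6046 tested. Without wild-type replicate 3, 13 were higher and 5 lower, the added lower ones being SPBC1604.04, pho4 and SPBPB2B2.06c. Over all features, leaving out that replicate gave 1708 higher and 1789 lower of 6075 tested.

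Among the polyphosphate genes of that list, 3 of 6 were higher and 1 was lower, against 26.7% higher and 28.4% lower of all tested features. Besides nrf1, the vacuolar polyphosphatase gene SPBC713.07c rose from 77.4 ± 1.92 to 128 ± 3.23 CPM (log2 fold change 0.73, SE 0.0551, adjusted p = 1.12e-05). The vacuolar endopolyphosphatase gene SPCC1840.07c was called at 0.21 (SE 0.0640, adjusted p = 0.0179), a call lost with library totals alone (adjusted p = 0.167) and without wild-type replicate 2, mutant replicate 2 or mutant replicate 3 (adjusted p of 0.0521 to 0.0705). The exopolyphosphatase gene ppx1, whose product shortens the chain from its end, fell from 113 ± 9.68 to 82.0 ± 0.954 CPM (log2 fold change -0.46, SE 0.0694, adjusted p = 0.000558). Of these 3 genes for breaking polyphosphate, 2 were thus called higher and 1 lower. The hydrolase gene aps1 was at 0.056 (SE 0.0625, adjusted p = 0.468). The gene ppn1 was at 0.17 (SE 0.132, adjusted p = 0.306, and 0.0150 without wild-type replicate 3). It entered by its name, which budding yeast uses for a polyphosphatase, but it encodes a factor of mRNA cleavage and polyadenylation. Without ppn1, 3 of 5 were higher and 1 lower.

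Of 6 transporter genes besides SPAC23D3.12, 4 were higher and the others were not called, against 26.7% higher and 28.4% lower of all tested features. The glycerophosphodiester transporter gene tgp1 was at a log2 fold change of 3.21 and pho84 at 0.49. SPCC2H8.02, another predicted plasma membrane phosphate transporter, rose from 110 ± 9.06 to 130 ± 0.880 CPM (log2 fold change 0.25, SE 0.0676, adjusted p = 0.0119), and this call was lost with library totals alone (adjusted p = 0.0964). SPBC1683.01 was called at 0.22 (SE 0.0724, adjusted p = 0.0264), which was lost with library totals alone (adjusted p = 0.181) as well as without wild-type replicate 2 or any mutant replicate (adjusted p of 0.0598 to 0.0948). The mitochondrial phosphate transporter gene SPBC1703.13c was at 0.18 (adjusted p = 0.0805). It was called without wild-type replicate 1 (adjusted p = 0.0111) and with replicate number as a block (0.00589). SPBC1604.04, at -0.19 (adjusted p = 0.188), carries thiamine pyrophosphate and entered by the wording of its description. It had an adjusted p of 0.0329 with library totals alone and 0.0499 without wild-type replicate 3.

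Of 10 phosphatase and nucleotidase genes besides SPAC1039.02, 5 were higher and 1 was lower, against 26.7% higher and 28.4% lower of all tested features. The secreted acid phosphatase gene pho1 was at a log2 fold change of 1.92. The acid phosphatase gene SPBC4.06 rose from 165 ± 9.94 to 281 ± 22.4 CPM (0.76, SE 0.0719, adjusted p = 4.53e-05). The pyrimidine 5'-nucleotidase gene SPAC24B11.05 rose from 46.0 ± 2.34 to 71.1 ± 3.24 CPM (0.63, adjusted p = 0.000121). The glycerophosphodiester phosphodiesterase gene gde1 rose by 0.39 on the log2 scale (adjusted p = 0.00409), and SPAC17G6.03 was the fifth. The bisphosphate nucleotidase gene tol1 fell from 115 ± 10.6 to 83.9 ± 2.57 CPM (-0.45 on the log2 scale, adjusted p = 0.000814). The thiamine-repressible phosphatase gene pho4 was at -0.17 (adjusted p = 0.107). It was called lower with library totals alone (adjusted p = 0.00690), without wild-type replicate 3 (0.00693) and with replicate number as a block (0.0118). The vacuolar alkaline phosphatase gene pho8 was at 0.077 (adjusted p = 0.380) and the IMP nucleotidase gene isn1 at 0.11 (adjusted p = 0.152, and 0.0461 without wild-type replicate 1). The SPX-domain genes SPAC6B12.07c and SPCC1827.07c were at -0.0014 and 0.089 and were not called (adjusted p of 0.985 and 0.549).

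**Figure D4:**
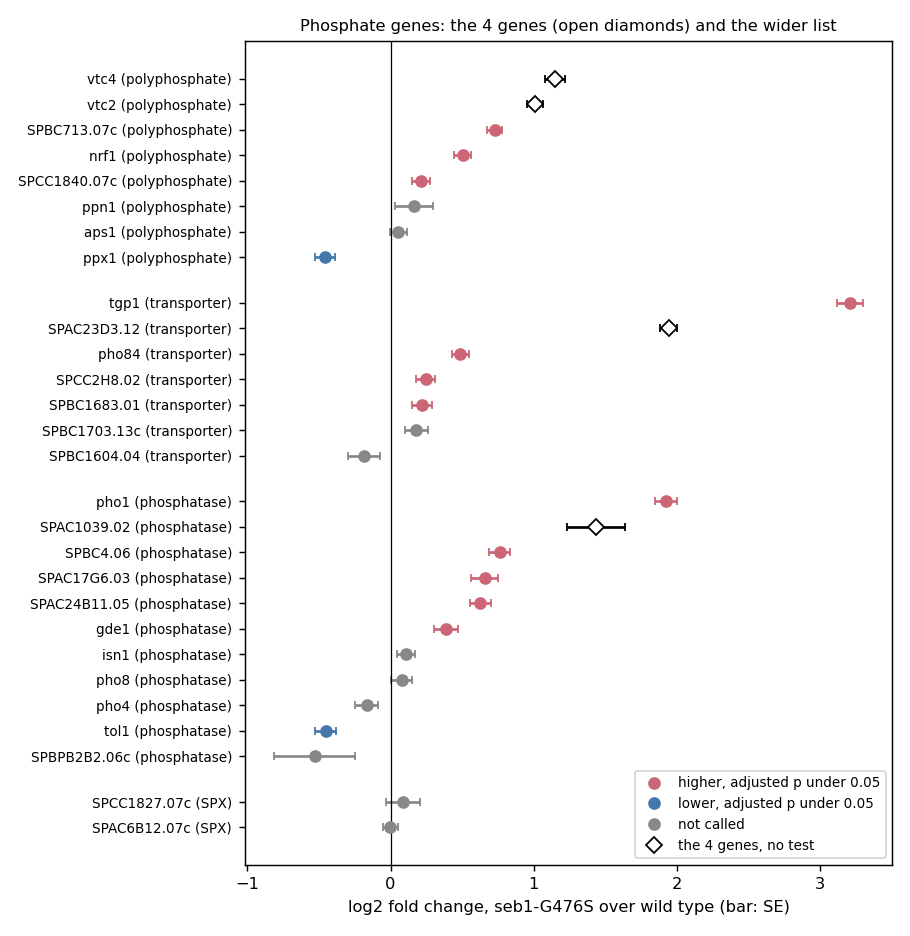
Log2 fold change (seb1-G476S over wild type) with its SE for the 4 genes (open diamonds, no test) and the 24 genes of the wider list, by group, coloured by the edgeR call. The called genes include tgp1 at 3.21 and pho1 at 1.92 on the higher side and ppx1 at -0.46 and tol1 at -0.45 on the lower side.

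The features around the 4 genes were compared in the same fit, since the screen concerned lncRNA transcription next to a gene. Neighbours come from the order of genes in the RefSeq annotation of assembly ASM294v3. Of 12 flanking features 11 were tested, with 4 higher and 2 lower, a share of calls close to the 55% of all tested features. Among the 11 tested, the flanking feature with the largest change stood beside SPAC23D3.12. This was ayr1-antisense-1, a predicted antisense RNA on the opposite strand next to the start of SPAC23D3.12. It had 7.08, 8.20 and 9.30 CPM in the wild-type and 22.0, 19.2 and 21.2 CPM in the mutant libraries, a rise of 1.34 on the log2 scale (SE 0.136, adjusted p = 6.35e-05). Since the strand setting of the counting is not known, its reads cannot be surely told from those of ayr1 on the other strand. The nearest upstream feature on the strand of SPAC23D3.12 itself, the predicted non-coding RNA SPNCRNA.244, had 2, 2 and 0 counts in the wild-type and 5, 9 and 6 counts in the mutant libraries, too few to be tested. On the other side of SPAC23D3.12, lam4, a Ragulator complex subunit gene on the same strand, fell from 15.5 ± 0.168 to 10.3 ± 0.294 CPM (log2 fold change -0.58, SE 0.111, adjusted p = 0.00194).

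Around vtc2, the glucanase gene agn1, upstream on the same strand, fell from 206 ± 5.38 to 145 ± 2.07 CPM (log2 fold change -0.51, SE 0.0514, adjusted p = 6.35e-05). SPNCRNA.261, a non-coding RNA after the end of vtc2 on the same strand, rose from 2.04 ± 0.0328 to 3.02 ± 0.234 CPM (0.57 on the log2 scale, adjusted p = 0.0161). That call was lost in the DESeq2 test (adjusted p = 0.0781) and without mutant replicate 1 or 2 (adjusted p of 0.0538 and 0.0682). The Nudix hydrolase gene SPAC14C4.10c was at 0.19 (adjusted p = 0.161) and laf1 at 0.18 (adjusted p = 0.0674). The adjusted p of laf1 was 0.0175 without wild-type replicate 1 and 0.0313 with replicate number as a block.

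Around vtc4, the ribosomal protein gene rpl3402 on the upstream side had a log2 value of 0.052 (SE 0.0582, adjusted p = 0.462), and mtr1, upstream on the same strand, was at -0.18 (adjusted p = 0.217). The purine synthesis gene ade6, on the opposite strand beside the end of vtc4, was called at 0.22 (adjusted p = 0.0180). The call of ade6 was lost with library totals alone (adjusted p = 0.0859) and without wild-type replicate 2, mutant replicate 1 or mutant replicate 2 (adjusted p of 0.0512 to 0.0725).

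Both neighbours of SPAC1039.02 lie on its strand. The permease gene SPAC1039.01 upstream had 75.0, 64.8 and 56.6 CPM in wild-type replicates 1, 2 and 3, the same order as SPAC1039.02. In the mutant libraries it had 76.5, 76.0 and 79.9 CPM. That wild-type order was common in the wider phosphate list, as in vtc2, nrf1, pho1, tgp1, pho8, isn1, pho4 and SPBC4.06. The flanking genes ade6 and laf1 had it too. It was absent from vtc4, SPAC23D3.12, pho84, ppx1 and others, and its share over all features was not counted. The order is thus not particular to neighbours. The log2 fold change of SPAC1039.01 was 0.24 (SE 0.0945, adjusted p = 0.0522). It was called without wild-type replicate 1 (adjusted p = 0.00386) and in the DESeq2 test (0.0469). A filter of at least 50 counts on average (0.0424) and replicate number as a block (0.0218) also gave a call. The esterase gene SPAC1039.03 downstream was called at 0.26 (SE 0.0591, adjusted p = 0.00514), a call lost with library totals alone (adjusted p = 0.0754).

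**Figure D5:**
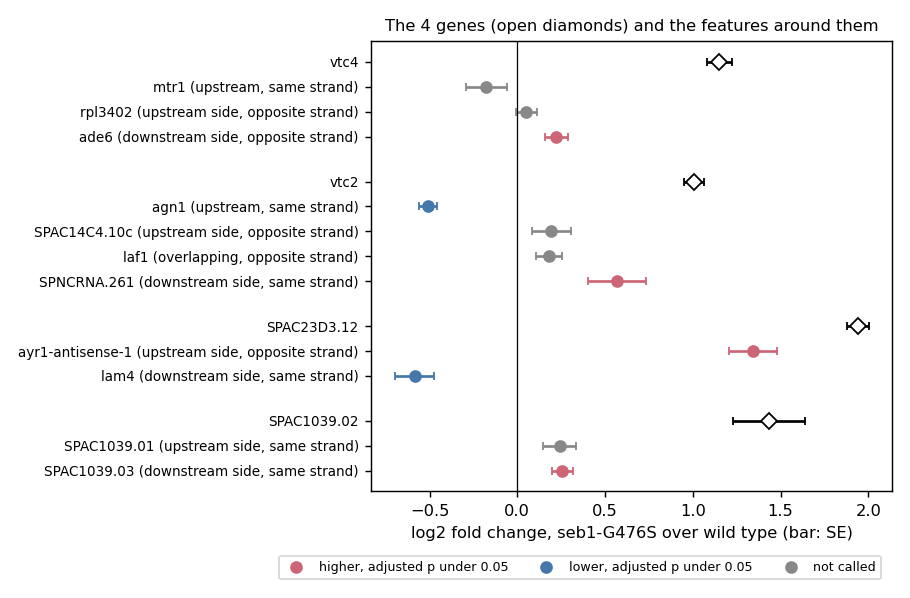
Log2 fold change with its SE for the 4 genes (open diamonds, no test) and the tested features around each, coloured by the edgeR call. The tested flanking features lie between -0.58 (lam4) and 1.34 (ayr1-antisense-1). Each lies below the gene it flanks, which the choice of the 4 genes for their rise makes likely for any neighbour.

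The coding genes with the profile most like each of the 4 over the 6 libraries were found by the root mean square difference of mean-centred log2 CPM, among 4667 candidates. Nearest to vtc4 were mct1, a mitochondrial malonyltransferase gene (difference 0.0537), and the RNA helicase gene dbp2 (0.0642). Nearest to vtc2 were the recombination gene rad55 (0.0339) and the splicing factor gene cxr1 (0.0485). Nearest to SPAC23D3.12 were the DNA helicase gene rdh54 (0.0575) and pho1 (0.0816), the secreted acid phosphatase gene. Nearest to SPAC1039.02, at larger differences, were the Hsp70 gene ssa1 (0.167) and seb1 (0.235). The mRNA of seb1, the gene that carries the G476S allele, went from 120 ± 12.3 CPM in wild-type to 357 ± 14.1 CPM in mutant libraries. Its log2 fold change was 1.57 (SE 0.0769), given as a description because seb1 is listed here for its likeness. The wild-type libraries of ssa1 fell in the same order as those of SPAC1039.02, with 99.5, 90.3 and 67.5 CPM in replicates 1, 2 and 3. Since ssa1 was picked for likeness over these same libraries, nothing is read from the shared order, which many of the phosphate genes also had. With 6 libraries in 2 groups, likeness mostly measures a similar size of difference between the strains.

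The authors' deposited table gives log2 fold changes of 1.19 for vtc4 (SE 0.0733), 1.05 for vtc2 (SE 0.0788), 1.98 for SPAC23D3.12 (SE 0.0863) and 1.46 for SPAC1039.02 (SE 0.183). For SPAC1039.02 the authors' deposited table has group averages of 2557 normalized counts in the wild type and 7040 in the mutant, but a mean over libraries of 12675, above both. For vtc2 the authors' deposited table has averages of 8887 and 18341 and a mean over libraries of 8818, below both. A mean over these 6 libraries would lie between the group averages, so the mean in that table was not taken over these 6 alone. No other libraries were used here.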

How the data were processed

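RNA of 3 wild-type and 3 seb1-G476S cultures was sequenced as stranded paired-end polyA libraries, per the labels' protocols. The authors deposited raw counts per feature and their own comparison: log2 fold changes, p-values, the test statistic (a score) and averages of counts divided by size factors, a normalized signal, per the file headers. Build ASM294v2 was used with HISAT2 2.1.0 and HTSeq 0.10.0, besides SAMtools and DESeq2, per the submitters' processing notes. Their annotation release and strand setting are not given in the sources used here.

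The 6987 rows were summed to 6986 features, 1 identifier having stood on 2 rows. edgeR 4.0.16 (R 4.3.3) was run with TMM scaling, filterByExpr (minimum count 10) and a two-sided quasi-likelihood test, with Benjamini-Hochberg adjustment over 6046 features. The SE was obtained by dividing the log2 fold change by the root of F. CPM used TMM library sizes, and log2 CPM a prior count of 2. Exonic lengths and neighbours came from RefSeq's ASM294v3, matched by identifier. That build differs from the authors', so lengths are approximate and no coordinates are given. A search of promoters for motifs was planned but not run for the same reason. No 2 libraries agreed within sampling noise (lowest chi-square per degree of freedom 3.68). On simulated data for this comparison (6017 features), 86.6%, 92.5% and 100% of features changed 1.5-, 2- and 4-fold were recovered. Of the calls, 5.10% were false. Only 200 features were changed there, with the same dispersion for every feature. The simulation thus does not test the scaling where 55% of features are called, as here, or where spread differs between genes.

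The genes and lists were chosen with earlier results of these data known. The genes named are the 4, the called members of each list group and every polyphosphate gene, pho1, pho84 and tgp1, the flanking features and the 2 most similar genes for each of the 4. Uncalled members of the other groups, family shares and the wild-type spread were added after the values were seen. DESeq2 1.42.0, other scalings and filters, a replicate block and leaving out each library were tried as alternatives.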

Additional observations from a re-analysis of the deposited data

How the results depend on the processing

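Under 12 alternatives (other scalings, filters, DESeq2's test, a replicate block and leaving out each library) the log2 fold change of each of the 4 genes stayed positive. With library totals alone it was 1.03 for vtc4, 0.89 for vtc2 and 1.82 for SPAC23D3.12, where the median of all features shifted by -0.118. Leaving out 1 library gave 1.10 to 1.21 for vtc4, 0.97 to 1.04 for vtc2, 1.90 to 1.97 for SPAC23D3.12 and 1.20 to 1.72 for SPAC1039.02. Of the wider phosphate list, 9 were higher and 4 lower with library totals alone, and 10 to 14 were higher and 2 to 5 lower when 1 library was left out. Over all features, library totals alone gave 1148 higher and 2287 lower. Leaving out 1 library gave 1260 to 1708 features higher and 1262 to 1835 lower. In all 12 alternatives 9 of the list's 12 higher calls and both its lower calls were kept. Flanking features had 4 to 8 calls over the 12 alternatives, where all features had 1148 to 1877 higher and 1262 to 2287 lower. Over 42 single genes 0 called values changed sign. Same-numbered libraries of the 2 groups had deviations correlated at 0.357, 0.0585 and 0.263, and 5 of 6 libraries correlated best with their own number, a hint of pairing. The pair at 0.0585 is below the 0.1 asked of every pair, so the numbers were not taken as pairs. With the replicate block, 1877 features were higher and 2029 lower in place of 1613 and 1715, and the list had 13 higher and 3 lower. The block added calls for SPBC1703.13c (adjusted p = 0.00589), pho4 (0.0118), SPAC1039.01 (0.0218) and laf1 (0.0313). Depth did not limit the 4 genes, which had at least 1587 counts in every library, but it left SPNCRNA.244 untested. With 3 libraries a group, spreads are imprecise.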
